A study of Homo sapiens with 6 samples.

Results

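Interferon-stimulated genes and the chemokines CXCL10 and CXCL11, the ligands of the receptor CXCR3, were followed in growing and in senescent human fibroblasts with and without knockdown of RB1. The set was a list of 52 named genes, taken for their known induction by interferon and read from the platform's gene symbols, a rule that uses no measured value, although the list was drawn up with earlier results of these data known. Of these, 51 had a probe set that names the gene alone, and 50 passed the filter on dim signals and were tested, among 13398 genes tested in all. STAT2 was not analysed here, and IFI44L was measured but did not pass the filter. To pass, a gene had to exceed the median of an array on 2 or more of the 6 arrays. OAS1 and RSAD2 passed it only through the arrays of RB1 knockdown cells, and BST2, CXCL11 and OAS2 only through the 2 OIS states.

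The cells were IMR90, a human lung fibroblast, carrying an ER:Ras protein that 4-hydroxytamoxifen (4-OHT) switches on, which drives the cells into oncogene-induced senescence (OIS). Growing cells received neither 4-OHT nor siRNA. Both OIS states received 100 nM 4-OHT for 6 days and an siRNA whose transfection preceded RNA isolation by 4 days. This was a control siRNA against luciferase in Ctrl-KD OIS cells (siControl in the labels), and a mixture of siRNAs against RB1 in RB-KD OIS cells (siRB1). The OIS states are called Ctrl-KD and RB-KD cells from here on. There were 2 arrays in each state, named biological replicates by the labels. The effects of Ras and of siRNA transfection cannot be told apart when an OIS state is set against growing cells, and the effects of RB1 loss and of the sequences of the siRNAs cannot be told apart between the OIS states. In a bulk culture, fewer cells that express a gene and less RNA per cell cannot be told apart either.

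Interferons bind receptors on the cell surface that act through JAK kinases on transcription factors of the STAT family. A complex of these with IRF9, named ISGF3, binds the interferon-stimulated response element (ISRE) in the promoters of interferon-stimulated genes, while the GAS element is used after interferon gamma. IRF1 binds ISRE-like elements as well. The products act against viruses, sense foreign nucleic acids, attach the ubiquitin-like protein ISG15, present antigen, or attract T cells and natural killer cells through CXCR3. RB1 encodes the retinoblastoma protein, which binds E2F transcription factors and restrains the genes they drive.

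The knockdown reached its target. RB1 read 2627 and 2528 on the growing arrays, 2578 and 1914 on the Ctrl-KD arrays and 222 and 228 on the RB-KD arrays, in units of the deposited MAS5 signal. RB1 mRNA was thus lower on both RB-KD arrays than on any other (log2 difference from Ctrl-KD -3.30, standard error 0.14, adjusted p = 2.73e-06). Arrays of the same state correlated at r = 0.971 to 0.974 over the log2 signals of the tested genes, and arrays of different states at 0.893 to 0.953. The array medians lay between 46.0 and 51.8. The fibroblast collagen genes COL1A1 and COL1A2 and VIM, the gene of vimentin, were bright on all 6 arrays (20698 to 49088). COL1A2 had a mean of 43823 in growing, 20862 in Ctrl-KD and 25408 in RB-KD cells. Of 10 fibroblast markers, 7 were lower and 1 higher in Ctrl-KD than in growing cells (limma, adjusted p under 0.05). In RB-KD cells, 5 were lower and 1 higher. All tested genes gave 21.2% lower and 20.5% higher in Ctrl-KD, and 19% and 18.5% in RB-KD cells. Of 10 leukocyte genes with a probe set, CD3E exceeded the array median on 4 arrays, ITGAM on 3, MS4A1 on 2, PTPRC on 1 and the others on 0.

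Most of the set was higher in RB-KD than in Ctrl-KD cells, whereas Ctrl-KD cells lay on either side of growing cells. Of the 50 tested genes, 28 were higher and 0 lower in RB-KD against Ctrl-KD cells, where 12.6% and 11.6% of all tested genes were called higher and lower (limma, adjusted p under 0.05). At an unadjusted p under 0.05, the count of lower genes was also 0 and that of higher genes 34. Over all 13398 tested genes, 4818 had an unadjusted p under 0.05 in either direction. The median log2 difference of the set was 0.90, against -0.02 over all tested genes, and 47 of the 50 differences were above 0. The exceptions were IFI6, TRIM21 and SP110. The 2 RB-KD arrays lay above both Ctrl-KD arrays for 36 of the 50 genes and below both for 0, against 28.8% and 30.8% of all tested genes.

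Relative to growing cells the 2 OIS states differed in their counts. In Ctrl-KD cells, 11 of the 50 genes were higher and 18 lower (20.5% and 21.2% of all tested genes), with a median log2 difference of -0.21 against -0.01 over all tested genes. In RB-KD cells, 26 were higher and 3 lower (18.5% and 19% of all tested genes), with a median of 0.59 against -0.02. OAS1, RSAD2, BST2 and CXCL11, which passed the filter only through states in which they were high, are among these counts. With no filter, the 51 measured genes gave 11 higher and 18 lower in Ctrl-KD against growing cells. They gave 25 and 3 in RB-KD against growing, and 27 and 0 in RB-KD against Ctrl-KD cells. Over all 19775 genes with no filter, the counts in the same order were 2586 and 2652, 2334 and 2378, and 1506 and 1348. The first 2 comparisons use the same growing arrays, so their values are set side by side below and are not compared with each other as independent results.

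**Figure D1:**
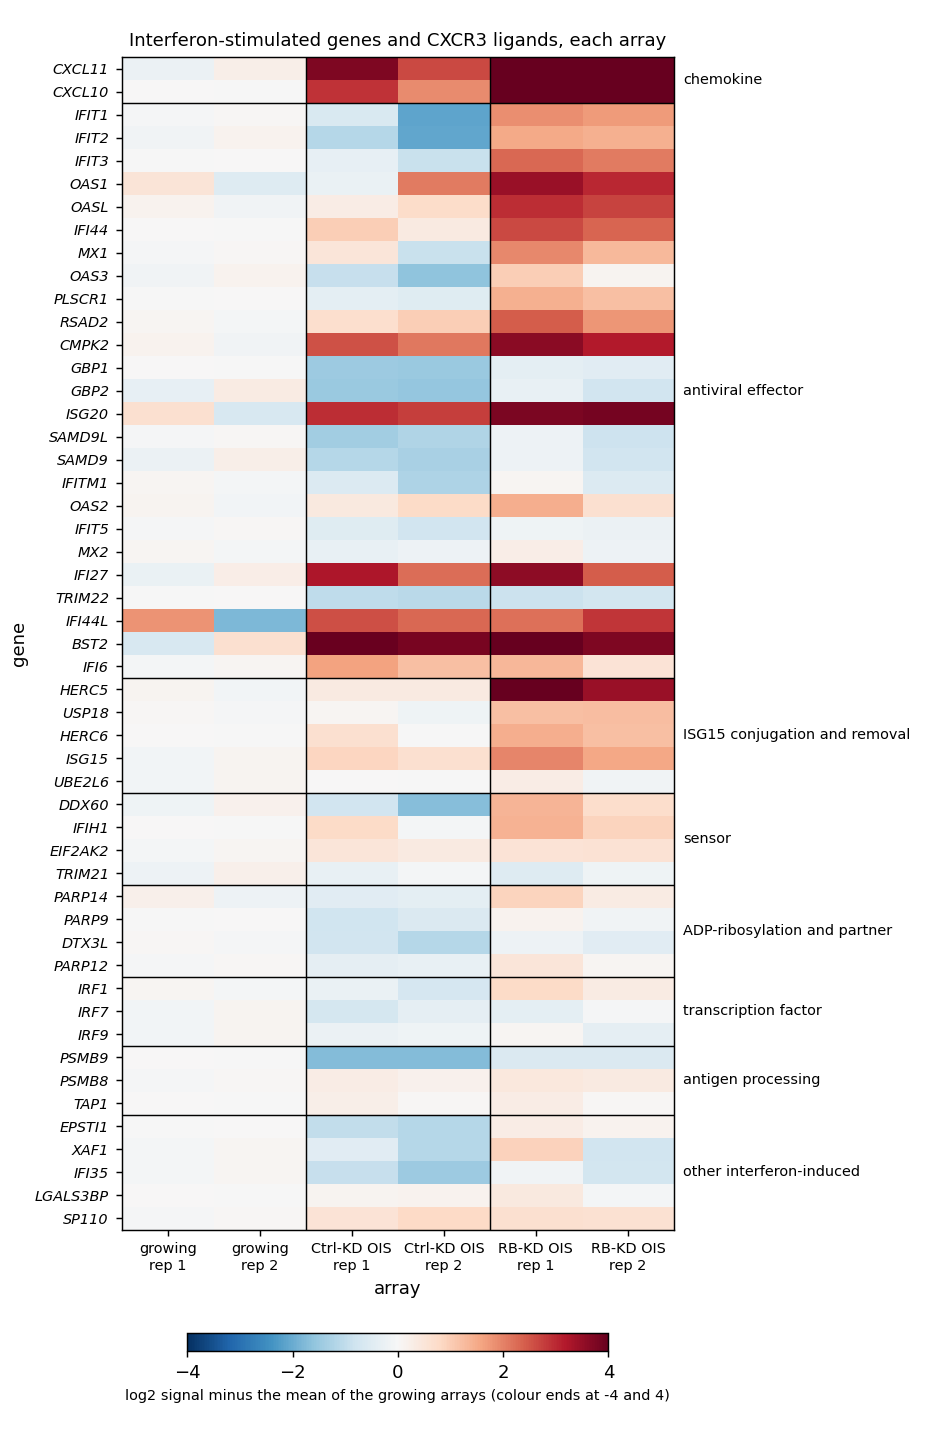
Log2 signal of the 51 measured genes on each of the 6 arrays, less the mean of the growing arrays for that gene, with genes grouped by role and ordered within a role by the difference between the OIS states. Red is higher and blue lower than growing cells, and the colour scale ends at -4 and 4. The RB-KD columns are redder than the Ctrl-KD columns for most rows, with both chemokines off the scale on the RB-KD arrays.

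The arrays of a state were not equal over the set. In RB-KD cells the first array was higher than the second for 44 of the 50 genes, with a median difference of 0.41 on the log2 scale, while over all tested genes the first array was higher for 46.9%. In Ctrl-KD cells the first array was higher for 36 of the 50, with a median of 0.15, and in growing cells for 21. The values of each array are therefore given for the genes described. Without the first RB-KD array, 17 of the 28 calls between the OIS states remained and 1 gene, IFI6, was called lower. The calls lost were those of CMPK2, DTX3L, GBP2, HERC6, IFIT5, MX1, PARP9, PARP12, PARP14, SAMD9 and SAMD9L. EPSTI1 lost its call when all probe sets of a gene were averaged, and IRF1 (adjusted p = 0.0556) and OAS3 when the prior variance had no trend. Under all 15 alternatives tried, 14 of the 28 calls remained: CXCL10, CXCL11, IFIT1, IFIT2, IFIT3, IFI44, OASL, GBP1, PLSCR1, ISG15, HERC5, USP18, DDX60 and PSMB9.

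The ISRE core was found in most promoters of the set. RefSeq promoter windows of build GRCh38.p14, from 250 bases before to 50 after the start site, were found for 44 of the 52 genes. The core letters GAAANNGAA, searched on both strands, were in a window of 32 of these 44 genes (72.7%), against 9.86% of all 27305 genes with a window. The GAS letters TTCNNNGAA were in 16 (36.4%, against 9.38%), and in 5 genes a GAS match overlapped an ISRE match. An E2F site, searched as TTTGGCGC or TTTCCCGC on both strands, was in 5 (11.4%, against 2.75%), namely CMPK2, RSAD2, IFIH1, PARP12 and OAS3. In OAS3 and IFIH1 the E2F match overlapped an ISRE match. The site was in 3 of 24 genes called higher in RB-KD against Ctrl-KD cells (12.5%) and in 2 of 18 not called (11.1%). A match is a description of these letters and not a site that a factor was shown to bind. The stretches below hold the match in capitals with up to 20 bases on either side, end before the start site and are written 5′ to 3′ on the strand of the gene, with the ISRE core in capitals for all but CXCL11, where the capitals mark GAS. The first set is shown because these genes were higher in RB-KD than in Ctrl-KD cells.
CXCL10 (chr4:76023690-76023738, minus strand): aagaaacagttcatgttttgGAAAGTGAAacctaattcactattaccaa
CXCL11 (chr4:76036282-76036320, minus strand): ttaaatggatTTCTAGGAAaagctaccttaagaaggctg
IFIT1 (chr10:89392488-89392549, plus strand): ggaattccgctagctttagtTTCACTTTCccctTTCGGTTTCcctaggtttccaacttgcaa
IFIT3 (chr10:89327822-89327904, plus strand): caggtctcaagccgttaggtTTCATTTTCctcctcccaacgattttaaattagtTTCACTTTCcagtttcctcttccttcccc
HERC5 (chr4:88456975-88457074, plus strand): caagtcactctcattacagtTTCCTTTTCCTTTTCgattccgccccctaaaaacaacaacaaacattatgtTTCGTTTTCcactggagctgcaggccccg
DDX60 (chr4:168318777-168318860, minus strand): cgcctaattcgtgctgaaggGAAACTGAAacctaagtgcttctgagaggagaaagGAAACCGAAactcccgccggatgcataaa
ISG15 (chr1:1013364-1013424, plus strand): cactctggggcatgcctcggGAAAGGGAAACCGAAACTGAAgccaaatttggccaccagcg
PLSCR1 (chr3:146544658-146544706, minus strand): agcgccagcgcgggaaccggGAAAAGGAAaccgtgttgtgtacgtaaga
EPSTI1 (chr13:42992263-42992311, minus strand): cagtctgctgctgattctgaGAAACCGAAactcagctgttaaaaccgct

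The second set is shown because these genes carry the same letters before their start and were not called between the OIS states.
TAP1 (chr6:32853803-32853857, minus strand): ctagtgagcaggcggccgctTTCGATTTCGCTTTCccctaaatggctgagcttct
LGALS3BP (chr17:78979953-78980001, minus strand): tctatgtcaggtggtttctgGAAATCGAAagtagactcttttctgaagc
IFI6 (chr1:27672257-27672368, minus strand): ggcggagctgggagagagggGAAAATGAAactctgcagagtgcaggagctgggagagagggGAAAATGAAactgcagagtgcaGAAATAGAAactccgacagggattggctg

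The ISRE core was thus present in genes called between the OIS states and in genes not called. It was in 19 of the 24 genes with a window that were called higher in RB-KD cells (79.2%) and in 12 of the 18 that were tested and not called (66.7%). HERC6, PSMB9 and SAMD9L were called higher in RB-KD cells and held neither the ISRE core nor GAS in their windows. Among 909 other tested genes with the ISRE core in a window, 13.9% were called higher and 10.9% lower in RB-KD against Ctrl-KD cells, next to 12.4% and 12.2% of the 9859 without it. No test was made of these shares.

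**Figure D2:**
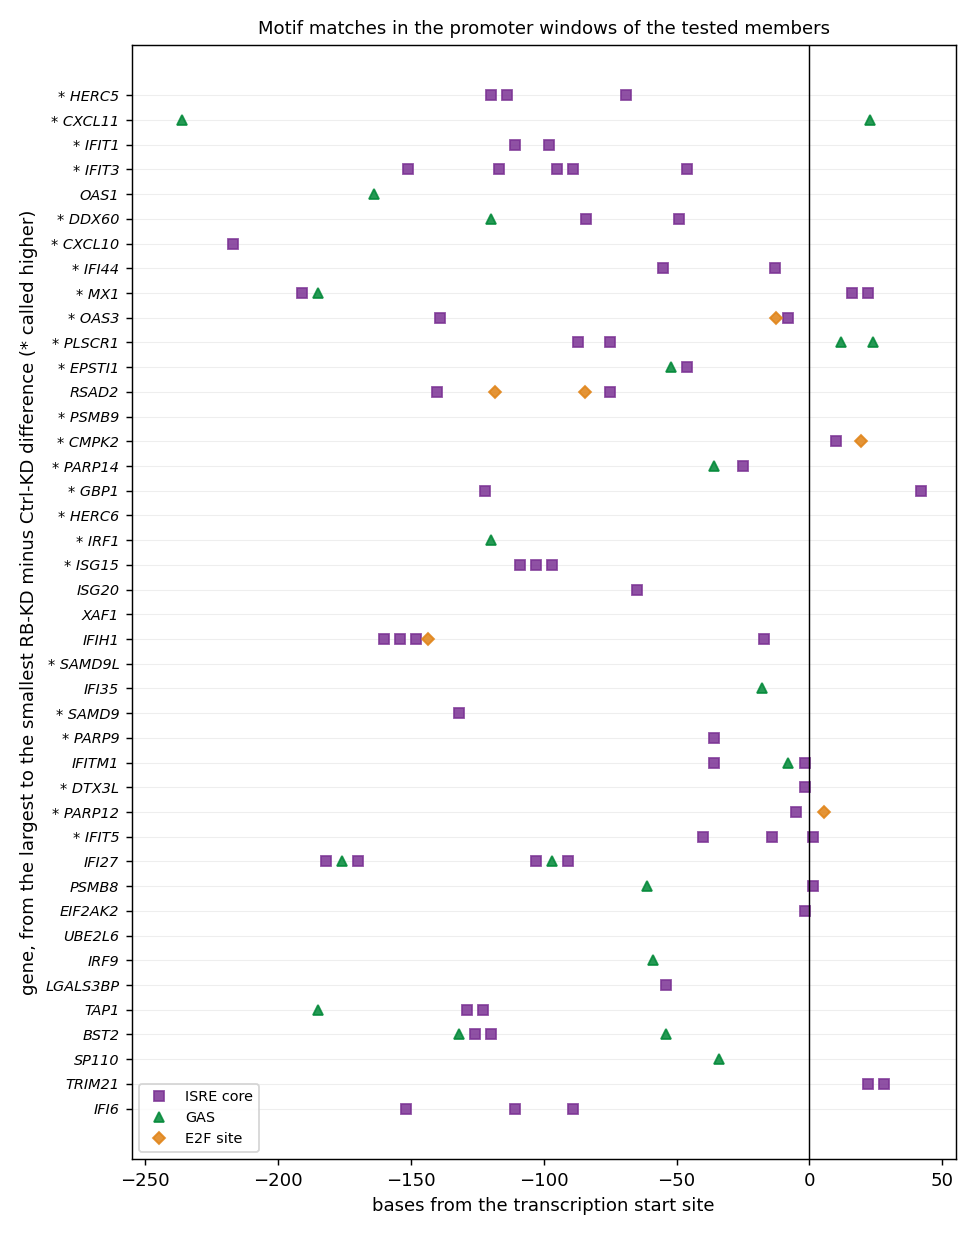
Positions of motif matches in the promoter windows of the tested genes with a window, in bases from the transcription start site (0 on the axis), with genes ordered from the largest to the smallest log2 difference between RB-KD and Ctrl-KD cells. Squares are the ISRE core, triangles GAS and diamonds the E2F sites, and a star marks genes called higher. Squares occur from the top to the bottom of the order.

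CXCL10 and, by its brightest probe set, CXCL11 rose in both OIS states and were highest in RB-KD cells. CXCL10 read 229 and 224 on the growing arrays, 1693 and 846 on the Ctrl-KD arrays and 6248 and 4694 on the RB-KD arrays. The 3 states did not overlap, and CXCL10 was 5.28-fold above growing in Ctrl-KD cells (log2 2.40 ± 0.27 SE, adjusted p = 0.00011) and 4.52-fold above Ctrl-KD in RB-KD cells (log2 2.18 ± 0.27, adjusted p = 0.000669). CXCL11, whose gene neighbours CXCL10, read 25.2 and 35.0 on the growing arrays, under the array median, 396 and 187 in Ctrl-KD cells and 2464 and 2450 in RB-KD cells. By this probe set it was at least 5.37-fold higher in Ctrl-KD and at least 48.5-fold higher in RB-KD cells than in growing cells (adjusted p = 7.57e-05 and 1.41e-06 in the limma fit with no filter), and 9.04-fold higher in RB-KD than in Ctrl-KD cells (log2 3.18 ± 0.33, adjusted p = 0.000245). A dimmer CXCL11 probe set read 31.7 and 68.3, then 188 and 49.5, then 560 and 604. Its log2 difference from growing was 3.64 in RB-KD cells and 1.05 in Ctrl-KD cells, where its arrays overlapped those of growing cells. CXCL9, the third interferon-induced ligand of CXCR3, did not pass the filter and read 24.0 to 59.0 over the 6 arrays. CXCR3 itself read 7.2 to 25.7, under the median on every array.

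**Figure D3:**
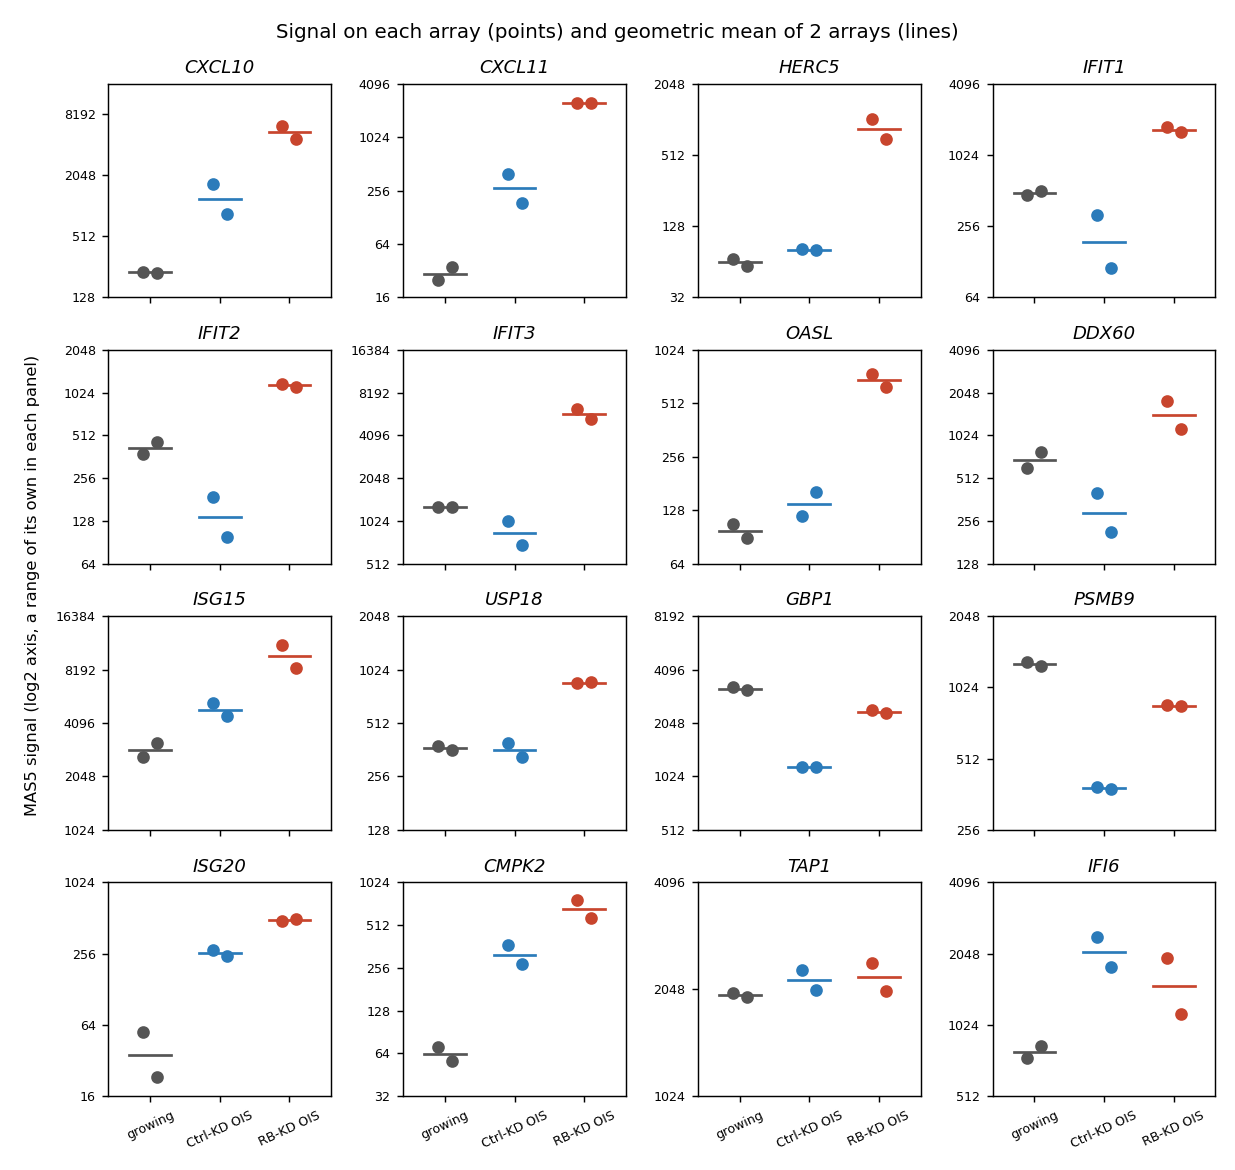
MAS5 signal of 16 genes on each array (points) with the geometric mean of the 2 arrays of a state (lines), on a log2 axis whose range differs between panels. Growing cells are grey, Ctrl-KD cells blue and RB-KD cells red. CXCL10 and CXCL11 rise from state to state, IFIT1 to IFIT3 and DDX60 are lowest in Ctrl-KD and highest in RB-KD cells, GBP1 and PSMB9 are highest in growing cells, and TAP1 stays between 1945 and 2430.

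The antiviral effectors were the most numerous role, with 25 genes. Of the 24 tested, 14 were higher and 0 lower in RB-KD against Ctrl-KD cells (12.6% and 11.6% of all tested genes). Their median log2 difference was 1.00. Against growing cells, 6 were higher and 12 lower in Ctrl-KD, and 14 were higher and 2 lower in RB-KD.

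The IFIT genes, whose products bind viral RNA and block its translation, lie in a cluster on chromosome 10. IFIT1 read 469 and 507 on the growing arrays, 318 and 113 on the Ctrl-KD arrays and 1751 and 1596 on the RB-KD arrays. Every Ctrl-KD value lay below and every RB-KD value above the growing values, and RB-KD exceeded Ctrl-KD cells 8.81-fold (log2 3.14 ± 0.38, adjusted p = 0.000503). The fall in Ctrl-KD cells (log2 -1.36 ± 0.38, adjusted p = 0.0167) depended in size on the second Ctrl-KD array: it was -0.62 without that array and -2.10 without the first. IFIT2 read 381 and 458, then 190 and 98.9, then 1183 and 1124 in the same order of states. Its order was that of IFIT1 (log2 -1.61 ± 0.27 in Ctrl-KD and 1.46 ± 0.27 in RB-KD cells against growing, adjusted p = 0.00125 and 0.00254), and RB-KD exceeded Ctrl-KD cells 8.41-fold. The mean of all IFIT2 probe sets lost the call in Ctrl-KD cells (log2 -0.44, adjusted p = 0.392). IFIT3 read 1278 and 1279 in growing, 1021 and 690 in Ctrl-KD, and 6284 and 5344 in RB-KD cells. Its difference between the OIS states was 6.90-fold (log2 2.79 ± 0.17, adjusted p = 1.31e-05), while its fall in Ctrl-KD cells was smaller (log2 -0.61 ± 0.17, adjusted p = 0.0179) and was not called without the second Ctrl-KD array (log2 -0.32, adjusted p = 0.0746).

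IFIT5, the neighbour of IFIT1, moved far less. Its signal was 1640 and 1716 in growing, 1187 and 981 in Ctrl-KD, and 1473 and 1427 in RB-KD cells, so both OIS states lay below growing cells. The difference between the OIS states was 1.34-fold (log2 0.43 ± 0.12, adjusted p = 0.0279) and lost its call under 8 of 15 alternatives.

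The OAS genes encode enzymes that make oligoadenylates and thereby activate RNase L, and OASL is a relative without that activity. OASL read 107 and 89.3 on the growing arrays, 119 and 162 on the Ctrl-KD arrays and 750 and 632 on the RB-KD arrays. It was higher in RB-KD cells (4.95-fold over Ctrl-KD, log2 2.31 ± 0.24, adjusted p = 0.000251). By this probe set the difference of Ctrl-KD from growing cells was not called (log2 0.51, adjusted p = 0.124). A dimmer OASL probe set read 49.5 and 27.3, then 176 and 112, then 645 and 512, with both Ctrl-KD arrays above growing (log2 1.93). OAS3 read 236 and 286 in growing, 137 and 84.5 in Ctrl-KD, and 509 and 280 in RB-KD cells, so the RB-KD arrays overlapped the growing ones. It was lower in Ctrl-KD than in growing cells (log2 -1.27 ± 0.33, adjusted p = 0.0129) and 3.51-fold higher in RB-KD than in Ctrl-KD cells (adjusted p = 0.00449). The fall in Ctrl-KD cells lost its call under 4 of 15 alternatives, and a dimmer OAS3 probe set gave log2 -0.27 there. OAS1, the neighbour of OAS3, reached the array median on the RB-KD arrays alone, with 117 and 85.2 against 15.3 and 7.40 in growing and 8.80 and 44.8 in Ctrl-KD cells. It was at least 1.97-fold higher in RB-KD than in growing cells (adjusted p = 0.0295 with no filter), a call lost without either growing array, and the difference from Ctrl-KD cells was not called (adjusted p = 0.135). OAS2 read 31.8 to 94.5 and was called in no comparison.

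MX1, a GTPase that traps viral nucleocapsids, read 98.7 and 106 in growing, 143 and 54.6 in Ctrl-KD, and 384 and 250 in RB-KD cells. Ctrl-KD values fell on both sides of growing, and both RB-KD values were higher (3.51-fold over Ctrl-KD, log2 1.81 ± 0.44, adjusted p = 0.0163). This call was lost without the second Ctrl-KD array (log2 1.12, adjusted p = 0.0566). Its neighbour MX2 stayed between 46.6 and 69.1 and was called in no comparison.

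PLSCR1, a phospholipid scramblase, read 1598 and 1600 in growing, 1231 and 1136 in Ctrl-KD, and 4294 and 3690 in RB-KD cells. It was 3.37-fold higher in RB-KD than in Ctrl-KD cells (log2 1.75 ± 0.11, adjusted p = 1.24e-05). The small fall in Ctrl-KD cells (log2 -0.44, adjusted p = 0.009) turned to 0.65 (adjusted p = 0.172) when all probe sets were averaged. A dimmer PLSCR1 probe set that exceeded the array median on 6 arrays gave log2 -0.31 there. Another, which exceeded it on 0 arrays, gave 2.69. IFI44 read 248 and 240, then 481 and 310, then 1536 and 1215, and was 3.54-fold higher in RB-KD than in Ctrl-KD cells (log2 1.82 ± 0.21, adjusted p = 0.000467). The rise of IFI44 in Ctrl-KD cells (log2 0.66, adjusted p = 0.0339) was not called without the first Ctrl-KD array (log2 0.34, adjusted p = 0.198). IFI44L, beside IFI44 on the chromosome, read 2.20 to 55.3 and was not tested.

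ISG20, CMPK2, IFI27, IFI6 and BST2 were higher in both OIS states than in growing cells. ISG20, an RNA exonuclease, read 55.3 and 23.1 in growing, with 1 array under the median, 276 and 243 in Ctrl-KD, and 487 and 503 in RB-KD cells. Its rise over growing cells was 2.86 ± 0.38 in Ctrl-KD and 3.79 ± 0.38 in RB-KD cells on the log2 scale (adjusted p = 0.00027 and 6.23e-05), and the OIS states did not differ beyond the threshold by this probe set (log2 0.93, adjusted p = 0.106). A dimmer ISG20 probe set read 9.9 and 9.8, then 93.5 and 11.8, then 388 and 377, with both RB-KD arrays above the Ctrl-KD arrays (log2 3.52). CMPK2, a mitochondrial nucleotide kinase, read 70.6 and 56.9, then 372 and 272, then 774 and 577. It rose 5.01-fold in Ctrl-KD cells (adjusted p = 7.04e-05) and stood a further 2.10-fold higher in RB-KD cells (log2 1.07 ± 0.25, adjusted p = 0.0133). RSAD2 (viperin), whose gene adjoins CMPK2, read 20.2 to 42.5 on the growing and Ctrl-KD arrays and 113 and 72 on the RB-KD arrays, at least 1.78-fold above growing cells (adjusted p = 0.0301 with no filter). That call was lost without either growing array, and RSAD2 was not called in Ctrl-KD against growing cells (adjusted p = 0.319) or between the OIS states (adjusted p = 0.181).

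IFI27 read 86.7 and 128 in growing, 989 and 494 in Ctrl-KD, and 1255 and 563 in RB-KD cells. Its product lies in mitochondria. The OIS states overlapped (log2 0.27 ± 0.41, adjusted p = 0.698), and both exceeded growing cells, 6.65-fold and 7.99-fold (adjusted p = 6e-04 and 0.00043). IFI6, an inhibitor of apoptosis, read 739 and 831, then 2409 and 1803, then 1954 and 1141. It is the gene of this set with the lowest value between the OIS states (log2 -0.48 ± 0.23, adjusted p = 0.174), and the arrays of those states overlapped. Its rise in RB-KD cells over growing (log2 0.93, adjusted p = 0.0115) was not called without the first RB-KD array (log2 0.54, adjusted p = 0.0667). BST2 (tetherin), which holds budding virions at the membrane, read 2.6 and 6.3 in growing cells, under the median, 62.2 and 56.4 in Ctrl-KD, and 66.8 and 53.9 in RB-KD cells. It was at least 1.17-fold and at least 1.18-fold higher in the 2 OIS states than in growing cells (adjusted p = 0.00476 and 0.00541 with no filter). Each call was lost without either array of its OIS state and when only the 2 states compared were fitted.

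The remaining effectors were lower in Ctrl-KD than in growing cells and were not called higher than growing cells in RB-KD. GBP1, a guanylate-binding GTPase induced strongly by interferon gamma, read 3258 and 3150 in growing, 1161 and 1157 in Ctrl-KD, and 2420 and 2321 in RB-KD cells. The 3 states did not overlap: GBP1 was 2.76-fold lower in Ctrl-KD than in growing cells (log2 -1.47 ± 0.09, adjusted p = 2.36e-06), and 2.04-fold higher in RB-KD than in Ctrl-KD cells (adjusted p = 8.65e-05). GBP2, which adjoins GBP1, read 284 and 445, then 127 and 122, then 288 and 208, with log2 differences of -1.52 in Ctrl-KD against growing and 0.98 between the OIS states (adjusted p = 0.00168 and 0.0289). The neighbouring genes SAMD9 and SAMD9L, restriction factors for poxviruses, were lower in Ctrl-KD cells by log2 -1.23 and -1.29 (adjusted p = 0.00166 and 0.000596) and higher in RB-KD than in Ctrl-KD cells by 0.73 and 0.78 (adjusted p = 0.0381 and 0.0189). Both of the latter values were 0.46 and not called without the first RB-KD array. TRIM22, an antiviral ubiquitin ligase, read 3308 and 3390 in growing, 1642 and 1600 in Ctrl-KD, and 1856 and 1992 in RB-KD cells. TRIM22 stayed lower than growing in both OIS states (log2 -1.05 and -0.80, adjusted p = 1.96e-05 and 0.000137). IFITM1, which blocks viral entry at membranes, was lower in Ctrl-KD cells (log2 -0.90, adjusted p = 0.0131), a call lost without the second Ctrl-KD array (log2 -0.55, adjusted p = 0.0896).

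**Figure D4:**
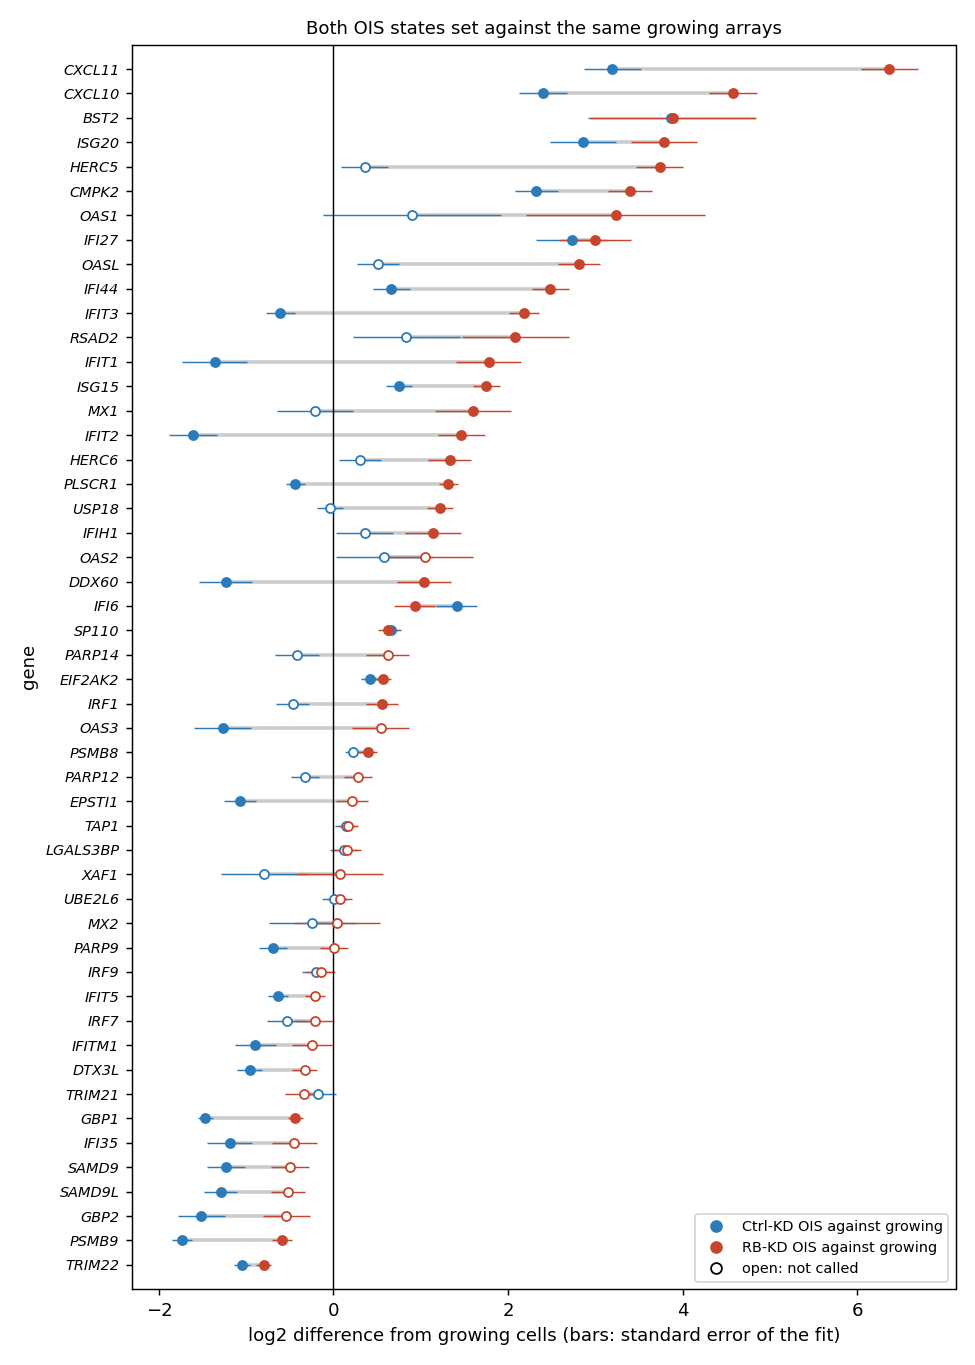
Log2 difference from growing cells of the 50 tested genes in Ctrl-KD (blue) and RB-KD cells (red), with the standard error of the fit as bars and open circles for values not called. Both colours use the same 2 growing arrays. The red points of CXCL11 and CXCL10 lie farthest to the right, and BST2 has the blue point farthest to the right. IFIT1, IFIT2, IFIT3, DDX60 and PLSCR1 have blue points left and red points right of 0. GBP1, PSMB9 and TRIM22 have both left of 0.

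Genes of the ISG15 pathway were higher in RB-KD cells with the exception of the conjugating enzyme. Of 5 genes, 4 were higher and 0 lower in RB-KD against Ctrl-KD cells (12.6% and 11.6% of all tested genes). The median log2 difference of the 5 was 1.02. HERC5, the main ligase that attaches ISG15 to proteins in human cells, read 67.8 and 59.2 in growing, 81.5 and 80.9 in Ctrl-KD, and 1023 and 699 in RB-KD cells. Growing and Ctrl-KD cells were not told apart by the test (log2 0.36 ± 0.27, adjusted p = 0.324), and RB-KD exceeded Ctrl-KD cells 10.4-fold (log2 3.38 ± 0.27, adjusted p = 5.63e-05), the highest value of the set in that comparison. HERC6, next to HERC5 on the chromosome, read 169 and 169, then 261 and 167, then 460 and 392, and was 2.03-fold higher in RB-KD than in Ctrl-KD cells (adjusted p = 0.0152). The mean of its probe sets did not keep that call (adjusted p = 0.0838). The dimmer HERC6 probe set exceeded the array median on 0 arrays.

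ISG15, the ubiquitin-like modifier itself, read 2649 and 3149 in growing, 5278 and 4460 in Ctrl-KD, and 11280 and 8389 in RB-KD cells. The states did not overlap, with a rise of 1.68-fold in Ctrl-KD cells (log2 0.75 ± 0.15, adjusted p = 0.00333) and a further 2.00-fold difference between the OIS states (log2 1.00 ± 0.15, adjusted p = 0.00163). USP18, which removes ISG15 and also restrains the type I interferon receptor, read 380 and 363, then 396 and 330, then 855 and 875. USP18 was thus raised in RB-KD cells alone among the calls (2.40-fold over Ctrl-KD, log2 1.26 ± 0.15, adjusted p = 0.000462). UBE2L6, the conjugating enzyme for ISG15, read 1690 to 2277 over the 6 arrays and was called in no comparison (log2 0.06 ± 0.14 between the OIS states, adjusted p = 0.798).

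Among the 4 sensors and their partners, DDX60 alone was called between the OIS states (12.6% of all tested genes were called higher). DDX60, a helicase that assists the RNA sensor RIG-I, read 607 and 786 in growing, 405 and 213 in Ctrl-KD, and 1779 and 1129 in RB-KD cells. RB-KD exceeded Ctrl-KD cells 4.83-fold (log2 2.27 ± 0.31, adjusted p = 0.000952). The fall of DDX60 in Ctrl-KD cells (log2 -1.24, adjusted p = 0.00991) was not called without the second Ctrl-KD array (log2 -0.77, adjusted p = 0.0611). IFIH1, which encodes the RNA sensor MDA5, read 117 and 117, then 201 and 112, then 307 and 218. It was 2.21-fold higher in RB-KD than in growing cells (adjusted p = 0.0209), a call lost under 5 of 15 alternatives. The difference of RB-KD from Ctrl-KD cells was log2 0.78 ± 0.32 (adjusted p = 0.114). EIF2AK2, the kinase PKR, read 1736 to 2732 and was higher in both OIS states than in growing cells (log2 0.42 and 0.57, adjusted p = 0.00797 and 0.00177). Dimmer probe sets gave opposite signs in Ctrl-KD cells, and the mean of all gave -0.37 in Ctrl-KD cells (adjusted p = 0.469) and 0.20 in RB-KD cells (adjusted p = 0.71). TRIM21, a cytosolic antibody receptor, read 270 to 447 and was called in no comparison.

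The ADP-ribosyltransferases PARP9, PARP12 and PARP14 and the ubiquitin ligase DTX3L, the partner of PARP9, were all higher in RB-KD than in Ctrl-KD cells. Their median log2 difference was 0.66, and 12.6% of all tested genes were called higher. None of the 4 was called between RB-KD and growing cells, where 18.5% and 19% of all tested genes were called higher and lower. Unadjusted limma p values there were under 0.05 for PARP14 (log2 0.62) and DTX3L (log2 -0.33). Such p values were found for 6130 of all 13398 tested genes. PARP14 read 254 and 191 in growing, 162 and 167 in Ctrl-KD, and 412 and 278 in RB-KD cells (log2 1.04 ± 0.25 between the OIS states, adjusted p = 0.0163). The mean of its probe sets gave 0.13 (adjusted p = 0.898). The dimmer PARP14 probe set exceeded the array median on 0 arrays and gave -0.77. PARP9 and DTX3L, adjacent genes, were lower in Ctrl-KD than in growing cells by log2 -0.69 and -0.96 (adjusted p = 0.00672 and 0.000642), and higher in RB-KD than in Ctrl-KD cells by 0.70 and 0.63 (adjusted p = 0.0125 and 0.0135). All 4 calls between the OIS states were lost without the first RB-KD array.

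Of the transcription factors, IRF1 differed between the OIS states and IRF7 and IRF9 did not pass the test. IRF1, an activator of interferon-induced genes, read 654 and 594 in growing, 520 and 391 in Ctrl-KD, and 1063 and 791 in RB-KD cells. The states did not overlap, and RB-KD exceeded Ctrl-KD cells 2.03-fold (log2 1.02 ± 0.19, adjusted p = 0.00447). IRF9, the DNA-binding part of ISGF3, read 753 and 890, then 701 and 726, then 865 and 634 (log2 0.05 ± 0.17 between the OIS states, adjusted p = 0.853). IRF7, which drives interferon alpha genes, read 171 to 300 over the arrays (log2 0.32 ± 0.23, adjusted p = 0.362).

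The antigen-processing genes lie side by side on chromosome 6 and gave unlike values. PSMB9, an inducible subunit of the immunoproteasome, read 1310 and 1263 in growing, 390 and 383 in Ctrl-KD, and 859 and 856 in RB-KD cells. The states were far apart relative to their arrays: PSMB9 was 3.33-fold lower in Ctrl-KD than in growing cells (log2 -1.74 ± 0.11, adjusted p = 3.75e-06) and 2.22-fold higher in RB-KD than in Ctrl-KD cells (log2 1.15 ± 0.11, adjusted p = 0.000202). TAP1, the peptide transporter gene next to it, read 2002 and 1945, then 2323 and 2033, then 2430 and 2022, and was called in no comparison. Its log2 differences were 0.14 ± 0.12 in Ctrl-KD and 0.17 ± 0.12 in RB-KD cells against growing, and 0.03 ± 0.12 between the OIS states (adjusted p = 0.384, 0.298 and 0.894). PSMB8, a second immunoproteasome subunit on the other side of TAP1, was slightly higher in RB-KD than in growing cells (log2 0.39 ± 0.10, adjusted p = 0.0116).

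In the last group, EPSTI1, found as an epithelial-stromal interaction gene, read 312 and 325 in growing, 160 and 144 in Ctrl-KD, and 394 and 348 in RB-KD cells. It was lower in Ctrl-KD than in growing cells (log2 -1.07 ± 0.18, adjusted p = 0.0014) and 2.44-fold higher in RB-KD than in Ctrl-KD cells (adjusted p = 0.0013). IFI35 read 393 and 446, then 223 and 152, then 377 and 251, and was lower in Ctrl-KD cells (log2 -1.19 ± 0.26, adjusted p = 0.00509). SP110, a nuclear body protein, was higher in both OIS states (log2 0.66 and 0.63, adjusted p = 0.00132 and 0.00224) and did not differ between them beyond the threshold (log2 -0.04 ± 0.11). XAF1 and LGALS3BP were called in no comparison, and the RB-KD arrays of XAF1 read 324 and 102.

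**Figure D5:**
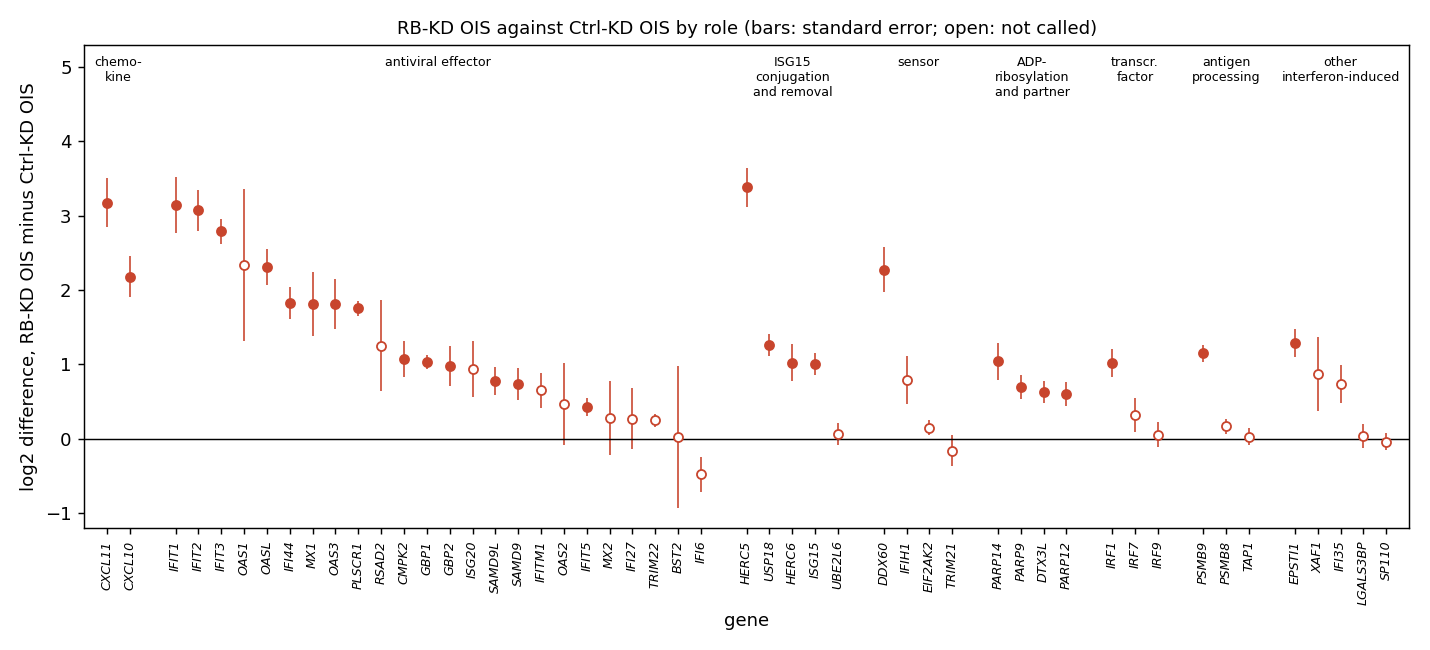
Log2 difference of RB-KD minus Ctrl-KD cells for the 50 tested genes by role, with the standard error of the fit as bars and open circles for genes not called. HERC5, CXCL11, IFIT1 and IFIT2 stand above 3, all 4 ADP-ribosylation genes are called, and TAP1, PSMB8, IRF9 and UBE2L6 lie close to 0.

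Several probe sets measured 25 of the genes, 87 in all for the 51 measured genes, and the values above are from the brightest. Among called genes, the dimmer probe sets that passed the filter had the sign of the brightest in 17 of 17 cases between the OIS states, in 16 of 17 for RB-KD against growing, and in 19 of 22 for Ctrl-KD against growing cells. The opposite signs came from EIF2AK2 and, in the last comparison, also from IFIT2.

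The genes upstream of the set were read from lists of the interferon pathway. Of 18 interferon ligand genes with a probe set, 2 passed the filter. IFNB1, the gene of interferon beta, read 1.70 to 4.70 and IFNG, the gene of interferon gamma, 2.30 to 18.6 over the 6 arrays, under the array median throughout. IFNE, the gene of interferon epsilon, read 58.5 and 65.2 in growing, 141 and 115 in Ctrl-KD, and 81.5 and 105 in RB-KD cells. It was 2.06-fold higher in Ctrl-KD than in growing cells (adjusted p = 0.0413), with no call between the OIS states (log2 -0.46 ± 0.35, adjusted p = 0.397).

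Of 9 tested receptor and JAK-STAT genes, 1 was higher and 1 lower in RB-KD against Ctrl-KD cells, close to the 12.6% and 11.6% of all tested genes. IFNGR1, a chain of the interferon gamma receptor, read 1987 and 2036 in growing, 1324 and 1135 in Ctrl-KD, and 2226 and 2027 in RB-KD cells. It was lower in Ctrl-KD than in growing cells (log2 -0.71 ± 0.11, adjusted p = 0.000688) and higher in RB-KD than in Ctrl-KD cells (log2 0.79 ± 0.11, adjusted p = 0.00108). IL10RB, a chain shared by the lambda interferon receptor, was the gene called lower (log2 -0.44, adjusted p = 0.0138).

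Of 7 genes outside the set that restrain interferon signalling, 0 were higher and 2 lower in RB-KD against Ctrl-KD cells by limma. Over all tested genes the shares were 12.6% and 11.6%. The count of higher genes among the 7 at an unadjusted p under 0.05 was also 0. Of all 13398 tested genes, 4818 had such a p in either direction. USP18, a gene of the set that restrains the type I interferon receptor, is not among the 7. By limma it was higher in RB-KD than in Ctrl-KD cells (log2 1.26, adjusted p = 0.000462). SOCS3, an inhibitor of JAK kinases, read 946 and 743 in growing, 5641 and 4155 in Ctrl-KD, and 2420 and 2624 in RB-KD cells. It rose 5.77-fold in Ctrl-KD over growing cells (adjusted p = 3.08e-06) and stood 1.92-fold under the Ctrl-KD level after RB1 knockdown (log2 -0.94 ± 0.16, adjusted p = 0.0031). PTPN11, the phosphatase SHP2, was the other gene called lower between the OIS states (log2 -0.26 ± 0.08, adjusted p = 0.0351). PIAS1, a SUMO ligase, was 2.01-fold and 2.03-fold lower in the Ctrl-KD and RB-KD states than in growing cells (adjusted p = 0.00441 and 0.00467).

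A further list held genes of nucleic acid sensing, its regulation and interferon induction. Of 12 tested genes on it, 2 were higher and 1 lower in RB-KD against Ctrl-KD cells. These counts were also near the shares of all tested genes (12.6% and 11.6%). RIGI, the RNA sensor RIG-I, read 561 and 577 in growing, 928 and 881 in Ctrl-KD, and 1438 and 1164 in RB-KD cells, with a log2 difference of 0.52 ± 0.13 between the OIS states (adjusted p = 0.0206). SAMHD1, which degrades deoxynucleotides, was the other gene called higher (log2 0.89 ± 0.12, adjusted p = 0.00118), and IFI16, a DNA sensor, was the gene called lower (log2 -0.32 ± 0.09, adjusted p = 0.0318). CGAS, the DNA sensor cGAS, was higher in RB-KD than in growing cells (log2 1.43 ± 0.39, adjusted p = 0.017) and was not called against Ctrl-KD cells (adjusted p = 0.0861).

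Interferon-induced genes outside the set gave other counts. Of 34 tested on a list of further interferon-induced genes, 3 were higher and 5 lower in RB-KD against Ctrl-KD cells, with a median log2 difference of 0.11, near the shares of all tested genes (12.6% and 11.6%). Against growing cells, 6 were higher and 13 lower in Ctrl-KD (20.5% and 21.2% of all tested genes), and 5 were higher and 9 lower in RB-KD (18.5% and 19%). Among the called genes of that list, APOL6, an apolipoprotein L, had the largest rise between the OIS states (log2 1.35 ± 0.32, adjusted p = 0.0151). NMI, a partner of IFI35, read 1349 and 1423 in growing, 385 and 403 in Ctrl-KD, and 487 and 491 in RB-KD cells, and was lower than growing in both OIS states (log2 -1.81 and -1.50, adjusted p = 4.32e-06 and 1.94e-05). IFITM2, a relative of IFITM1, was also lower in both (log2 -1.25 and -1.56, adjusted p = 9.28e-06 and 3.25e-06).

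Of 17 tested genes of class I antigen presentation, 4 were higher and 1 lower in RB-KD against Ctrl-KD cells (12.6% and 11.6% of all tested genes). NLRC5, the transactivator of class I genes, was higher by log2 0.69 ± 0.18 (adjusted p = 0.0232), and the peptide-trimming enzymes ERAP1 and ERAP2 by 0.60 and 0.72 (adjusted p = 0.027 and 0.0184). PSMB10, the remaining inducible subunit of the immunoproteasome, was the other gene called higher (log2 0.51, adjusted p = 0.0197). HLA-E, a non-classical class I molecule, was the gene called lower (log2 -0.33 ± 0.08, adjusted p = 0.0187).

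Markers of other cells were read beside these results. The leukocyte list had 10 of 13 genes with a probe set, and its summed signal was 249 to 382 in growing, 250 to 322 in Ctrl-KD and 269 to 308 in RB-KD cells, with no signal of any of its genes above 102. CD3E, of the T cell receptor complex, read 86.6 and 68.3 in growing, 66.3 and 102 in Ctrl-KD, and 34.8 and 19.5 in RB-KD cells. It passed the filter only through the growing and Ctrl-KD arrays. The filter and the call of CD3E between growing and RB-KD cells are thus not independent (limma, adjusted p = 0.049, bound on the fall 1.64-fold). No conclusion is drawn from that call. ITGAM, a myeloid integrin, read 34.7 and 28.8, then 84.2 and 79.6, then 76.5 and 43 with no call. The endothelial list had 5 genes, whose sum was 1318 to 1445, 546 to 559 and 1429 to 1597 in the same order. That order followed TEK, which encodes a receptor of endothelial cells and was higher in RB-KD than in Ctrl-KD cells (log2 1.94). PECAM1 read 98.1 to 165 and exceeded the median on all 6 arrays, VWF read 37.4 to 74.7 and exceeded it on 3, and CDH5 (5.70 to 15.3) and KDR (9.5 to 39.8) exceeded it on 0. PECAM1 and VWF were called in no comparison, and CDH5 and KDR were not tested. The epithelial list had 6 genes, whose sum was 3833 to 4083, 3148 to 3927 and 3519 to 3533, mostly from KRT18. Of 10 fibroblast markers, 7 were lower in Ctrl-KD and 5 in RB-KD cells than in growing cells (21.2% and 19% of all tested genes). In each OIS state 1 was higher (20.5% and 18.5% of all tested genes). The summed signal was 211101 to 212592 in growing, 130423 to 131134 in Ctrl-KD and 147168 to 176241 in RB-KD cells. DCN, the gene of the matrix proteoglycan decorin, fell in both OIS states (log2 -2.70 and -2.84). A part of cell composition in the results above was not tested.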

How the data were processed

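RNA of 6 IMR90 ER:Ras cultures, 2 in each of 3 states, was hybridised to Affymetrix U133 Plus 2.0 arrays, and the labels call the arrays of a state biological replicates. The deposited values are 1-colour intensities, 1 per probe set and array, which the authors summarised with MAS5 in Affymetrix Expression Console per the submitters' processing notes (versions not given in the sources used here). No further scaling was applied to the deposited intensities. The number of arrays limits the precision.

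Of 54613 probe sets, 41091 name 1 gene in the platform annotation, 1801 name several and 11721 none. The brightest probe set with 1 gene stood for each gene, and a gene was kept where it exceeded the array median on 2 or more of 6 arrays. Log2 values with no offset were fitted over all 3 states with lmFit and eBayes with a trend (R 4.3.3, limma 3.58.1), and p-values were Benjamini-Hochberg adjusted over all 13398 genes, with calls at 0.05. Errors given as ± are standard errors of that fit (2 arrays per state). An exact permutation test of 2 against 2 arrays cannot give a p under 0.333 and was not used. The procedure was tested on simulated data. Where every array of a state lay under its median, the gene has only a bound there: the fold is the mean of the brighter state over the higher of each dim array's median and the gene's own value.

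The genes of the set and the lists of related genes were chosen with earlier results of these data known, and list counts are descriptions. Values on every array are given for genes with a called log2 difference of 1 or more and states that do not overlap, up to 8 per role and 4 per related list, and for all chemokines, transcription factors, sensors and antigen-processing genes. Genes named beyond that rule were chosen after their values were seen. Alternatives covered normalization, offset (12.5), filter, probe set choice, prior variance, arrays in the fit, replicate block and leaving out each array. Promoter windows came from RefSeq (GRCh38.p14). No table of the authors' own comparisons was used.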

Additional observations from a re-analysis of the deposited data

How the results depend on the processing

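Of 1281 values recomputed for single genes over 15 alternatives, 1161 kept their direction and their side of the threshold, 118 kept their direction and lost the call, and 2 reversed: with the mean of all probe sets, EIF2AK2 gave -0.37 and PLSCR1 0.65 in Ctrl-KD OIS against growing cells, neither of them called. The PLSCR1 mean took in a probe set that exceeded the array median on 0 arrays. The count of genes of the set higher in RB-KD OIS than in Ctrl-KD OIS cells was 28, and 15 with no trend in the prior variance. Over all 13398 tested genes that count was 1682, and 940 with no trend. Leaving out each array in turn gave 17 to 30 higher and 0 to 1 lower in that comparison, 17 to 26 higher and 2 to 5 lower in RB-KD OIS against growing cells, and 9 to 11 higher and 13 to 19 lower in Ctrl-KD OIS against growing cells. The lowest counts of higher genes in both comparisons with RB-KD OIS cells (17 and 17) came without RB-KD OIS replicate 1. A lone array left in a state was assumed to vary like those of the other states.

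Calls that held under every alternative numbered 19 of 29 in Ctrl-KD OIS against growing, 16 of 29 in RB-KD OIS against growing and 14 of 28 between the OIS states. Median centring moved the median of all genes from -0.02 to 0.10 in RB-KD OIS against growing cells and the share of higher calls among all genes from 49.3% to 61%, while the share among the calls of the set went from 89.7% to 90%. In Ctrl-KD OIS against growing cells that share went from 49.2% to 57.6% for all genes and was 37.9% for the set in both settings. The differences of the first from the second array were correlated between states, for growing with Ctrl-KD, growing with RB-KD and Ctrl-KD with RB-KD. The r was -0.004, 0.010 and 0.035 over the tested genes, and -0.39, -0.07 and 0.17 over the 50 genes of the set. A shift common to the genes of the set does not enter r. The first array was higher for 21 of the 50 in growing, 36 in Ctrl-KD and 44 in RB-KD cells. A fit with the replicate number as a block gave 11 higher and 19 lower, 26 and 4, and 30 and 0 in the 3 comparisons. No call of the set was lost in that fit. The promoter count was 32 genes with the ISRE core and 31 with a longer core. Genes near or under the array median, such as BST2, OAS1, OAS2, RSAD2 and MX2, are limited by signal over background, and the cause of the lost calls was not tested.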
